A study of Xenopus tropicalis with 18 samples.

Results

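The response of thyroid hormone receptor (TR) occupancy to hormone was examined in Xenopus tropicalis tadpoles that lack TRα. The comparison takes 6 of the 18 ChIP-seq libraries of the series, all from the intestine of TRα knockout (TRαKO) animals at stage 54, and all 9867 counted regions. In 3 libraries the tadpoles had received 10 nM T3, the active thyroid hormone, for 18 h, and in the other 3 they were untreated. The series describes the 3 libraries of a group as biological replicates from different tadpoles. Chromatin was precipitated with an antibody described only as against TR, so signal in TRαKO animals is signal of whatever TR that antibody still recognises. The sample labels write TRαKO where the series text writes TRαLKO, and neither gives the altered stretch of the gene or the number of animals pooled. The wild-type and TRβ knockout (TRβKO) groups, each with and without the same T3 treatment, serve below only to show where the TRαKO response differs.

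Thyroid hormone drives amphibian metamorphosis, in which the larval intestinal epithelium dies and is replaced by an adult one. TRα and TRβ are nuclear receptors that bind DNA at thyroid hormone response elements, mostly as heterodimers with retinoid X receptors, recruiting corepressors without hormone and coactivators with it. In tadpoles the gene of TRβ is itself a direct hormone target, whereas TRα is the receptor already abundant before metamorphosis.

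In TRαKO intestine more regions had higher than lower TR signal with T3, and with tags as library size hardly any was lower. Signal is given as counts per M tags (CPM, with M for 1000000), the reads in a region over the tags left after the duplicate filter of that library. Of 9342 regions with enough reads to test, 803 were higher with T3 at an edgeR adjusted p under 0.05, which is 8.6% of the tested regions, and 7 were lower, which is 0.0749% (8.67% in either direction). The 803 regions had a median of 4.26 CPM with T3 and 1.24 CPM untreated, against 2.03 and 1.45 CPM over all tested regions. Their median per library was 4.11, 4.37 and 4.31 CPM in the T3 libraries and 1.29, 1.18 and 1.20 CPM in the untreated ones. Their median log2 change was 1.73, with a range of 0.50 to 5.20. In 780 of the 803 every T3 library lay above every untreated library, an order that 26.3% of all tested regions also showed. The 803 were chosen by the same libraries, so their medians and this order partly follow from that choice and are no test.

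The numbers of rises and falls depended on the scaling. The median log2 change of all tested regions was 0.46 with tags as library size and 0.07 with TMM, a scaling that assumes most regions do not change, a shift of -0.39. With TMM 398 regions were higher (4.26% of tested) and 49 lower (0.525%), so that rises made up 89.0% of calls with TMM and 99.1% with tags. All 398 were among the 803, and the 7 lower regions were among the 49. Falls were more numerous with DESeq2, at 410 higher and 154 lower. With TMM on the 6 libraries alone, a setting chosen after seeing the data, 401 were higher and 167 lower of 7615 tested. The 398 had a median log2 change of 2.01 with tags and 1.62 with TMM. No input, mock or spike-in library was used here, so a common gain of binding and a library-wide difference in enrichment cannot be told apart. Since the tissue is a mixture of cells, more signal per cell and more cells of a type also cannot be told apart.

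**Figure D1:**
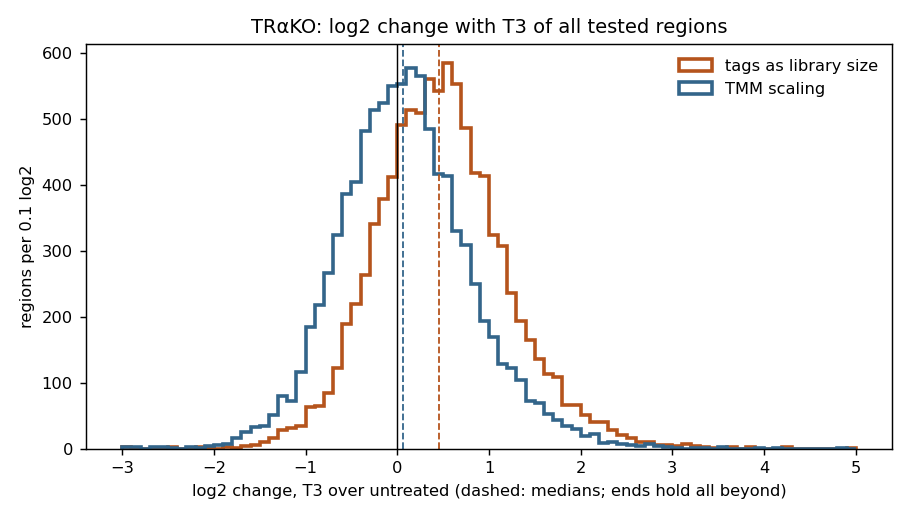
Number of tested regions in bins of 0.1 log2 change with T3 in TRαKO, with library sizes taken as tags (orange) and with TMM scaling (blue); dashed lines mark the medians of 0.46 and 0.07. Both curves have a longer tail on the side of higher signal with T3.

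**Figure D2:**
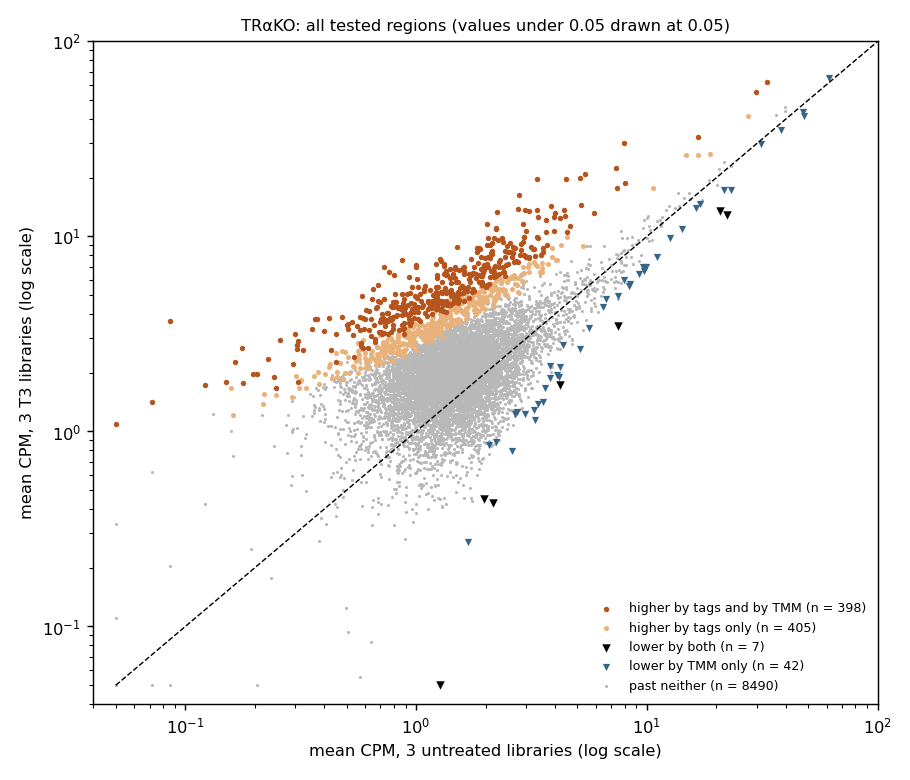
Mean CPM of 3 T3 libraries (vertical, log scale) against mean CPM of 3 untreated libraries (horizontal, log scale) for all 9342 tested regions, coloured by call; the dashed line marks equal levels. All 803 regions higher by tags lie above the line, with the 398 that also passed with TMM partly mixed among the rest, and the 7 regions lower under both lie below it.

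The libraries themselves separated by treatment. The T3 libraries held 6.03 to 8.02 M tags after filtering and the untreated ones 7.49 to 9.28 M. Reads in the counted regions came to 2.34 ± 0.115 per 100 tags with T3 and 1.67 ± 0.0122 untreated (SD, n = 3 each; exact permutation p = 0.1, the smallest that 3 against 3 can give). The authors' caller found 4732 ± 1767 peaks per T3 library and 1182 ± 480 per untreated library (SD, n = 3 each; exact permutation p = 0.1). The counted regions overlap peaks called in libraries of the series, these 6 among them, so the share of reads in them is no independent measure. The share of duplicate tags was 7.57 to 10.9% over the 6 libraries. Log2 CPM over regions correlated at 0.572 to 0.594 between T3 libraries, 0.559 to 0.561 between untreated ones and 0.380 to 0.442 across treatments, as a description over regions that share libraries.

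Most regions that rose had a peak in at least 2 T3 libraries and in at most 1 untreated library. Of the 803, 522 had a peak in at least 2 T3 libraries and 40 in at least 2 untreated libraries. Over all 9342 tested regions these counts were 2019 and 290. Another 281 of the 803 had a peak in at most 1 library of each group. Among 1836 tested regions with a peak in at least 2 T3 libraries and in at most 1 untreated library, 482 were higher and 290 remained so with TMM. Among 183 regions with a peak in at least 2 libraries of each group, 40 were higher and 2 lower. Among 107 with a peak in at least 2 untreated libraries and at most 1 T3 library, none was higher and 2 were lower, and with TMM 9 were lower. Peak calls and read counts come from the same libraries, so this describes the rises and does not test them.

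Rises were also counted by level and by place. Of the 1869 regions with the highest mean level over the 6 libraries, 26.0% were higher with T3, against 2.03% of the 1869 with the lowest. That mean includes the T3 libraries, so a rise itself lifts a region in this order, and low regions have fewer reads, so a rise of the same size is detected there less often. The untreated median of the 803, given above, was below that of all tested regions, and low untreated values themselves favour a call as higher. A gene body covered 66.3% of the 803 regions and 53.8% of all tested regions, and no gene lay within 10 kb of 15.1% and 29.1% of them. Of the 803 regions, 121 were assigned to no gene. The others were assigned to 615 genes, of which 50 had at least 2 rising regions.

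The receptor genes were among the regions that rose. All 4 counted regions of thra, which encodes TRα, were higher with T3 although the gene is the one knocked out, and they say nothing about the altered stretch, which the labels do not place. The strongest, in the gene body at chromosome 10, 9096138 to 9097271, had 18.1, 19.9 and 21.1 CPM with T3 and 4.50, 4.52 and 4.41 CPM untreated. The groups stood far apart, with a log2 change of 2.13 ± 0.19 (SE; edgeR adjusted p = 6.91e-15). The next region, at 9098324 to 9098804, had 7.48, 7.76 and 8.80 CPM with T3 and 2.31, 2.15 and 4.01 CPM untreated, a log2 change of 1.51 ± 0.27 (edgeR adjusted p = 1.54e-05). At 9147455 to 9147906, 5.61, 2.40 and 3.32 CPM with T3 stood against 0.514, 0.754 and 0.534 CPM untreated. That region had the largest log2 change of the 4, 2.61 ± 0.47 (edgeR adjusted p = 1.70e-05), and the widest spread among T3 libraries. At 9104506 to 9104878 the third T3 library was low, with 3.37, 3.53 and 1.33 CPM with T3 and 0.386, 1.08 and 0.267 CPM untreated (log2 change 2.18 ± 0.50, edgeR adjusted p = 0.00105). All 4 remained higher with TMM and whichever of the 6 libraries was left out.

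The gene of TRβ, thrb, had 3 counted regions on chromosome 6, and 2 of them rose. The region at 46932899 to 46933467 had 12.3, 11.7 and 14.3 CPM with T3 and 4.89, 3.77 and 4.54 CPM untreated, a log2 change of 1.54 ± 0.20 (edgeR adjusted p = 8.93e-09). The region at 46899379 to 46899872 had 6.73, 6.91 and 6.14 CPM with T3 and 2.31, 1.83 and 2.40 CPM untreated, a log2 change of 1.60 ± 0.29 (edgeR adjusted p = 2.42e-05). In both, every T3 library lay above every untreated one. The region at 46698245 to 46698759 differed from them, with 4.74, 3.81 and 4.81 CPM with T3 and 4.12, 5.49 and 4.94 CPM untreated. Its groups overlapped and its log2 change was -0.13 ± 0.27 (edgeR adjusted p = 0.833), although a peak was called there in 2 libraries of each group.

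Signal also rose at other genes that respond directly to hormone in tadpoles, and the rise at klf9 depended on the scaling. The thibz region at chromosome 3, 140193300 to 140193863, in the gene of a basic leucine zipper transcription factor, had 20.3, 19.9 and 22.6 CPM with T3 and 6.43, 5.71 and 4.01 CPM untreated. Its log2 change was 1.95 ± 0.18 (edgeR adjusted p = 1.99e-14), and a peak was called in all 6 libraries. The dot1l region at chromosome 1, 102709807 to 102710470, in the gene of the histone H3 lysine 79 methyltransferase, had 12.1, 11.4 and 14.3 CPM with T3 and 3.47, 3.45 and 4.94 CPM untreated (log2 change 1.67 ± 0.23, edgeR adjusted p = 1.84e-08). The klf9 gene, which encodes a Krüppel-like transcription factor, had a region beside it at chromosome 1, 129859818 to 129860416, with 6.98, 7.48 and 6.80 CPM with T3 and 3.73, 2.69 and 3.60 CPM untreated. Its groups did not overlap, yet the log2 change of 1.09 ± 0.28 (edgeR adjusted p = 0.00382) became 0.70 with TMM, with an edgeR adjusted p of 0.174. The klf9 region inside the gene, at 129851578, had 2.98 ± 0.263 CPM with T3 and 1.61 ± 0.437 CPM untreated (SD, n = 3 each) and did not pass (edgeR adjusted p = 0.235).

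**Figure D3:**
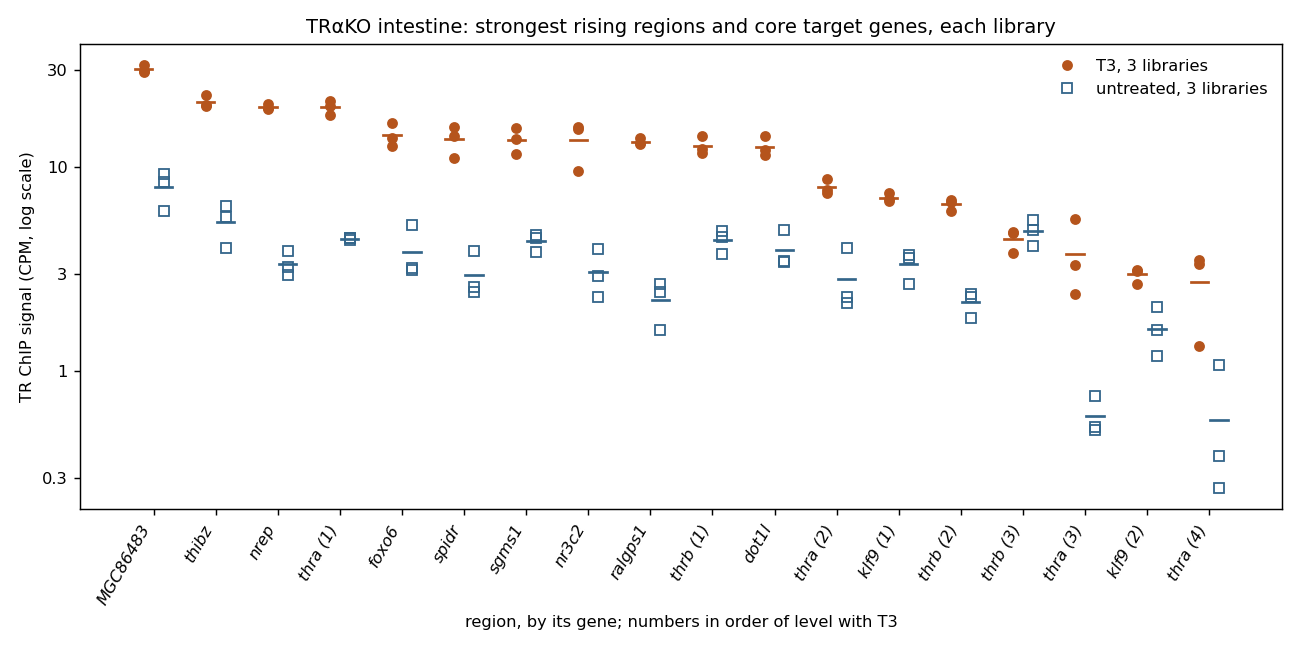
CPM per library (log scale) in TRαKO for named chromosomal regions. Shown are those with the highest T3 signal among rises with a gene symbol that passed with tags and TMM. All regions of thra, thrb, klf9, thibz and dot1l are added. Filled circles are 3 T3 libraries, open squares 3 untreated libraries, short lines means. In every region but thrb (3), the one at 46698245, all T3 points lie above all untreated points.

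Among rises with a gene symbol that also passed with TMM, the strongest on a chromosome lay beside MGC86483, at chromosome 5, 5402339 to 5403067. It had 29.8, 29.2 and 31.7 CPM with T3 and 8.49, 9.26 and 6.14 CPM untreated, a log2 change of 1.91 ± 0.14 (edgeR adjusted p = 5.96e-19). Peaks were called there in all 6 libraries, so the site was detected without hormone and higher with it. Beside nrep, at chromosome 1, 173259087 to 173259806, signal was 20.4, 19.5 and 19.4 CPM with T3 and 2.96, 3.23 and 3.87 CPM untreated, a log2 change of 2.56 ± 0.19 (edgeR adjusted p = 5.96e-19). Here no untreated library had a peak, whereas every T3 library did.

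Among the other strong rising regions were those at nr3c2, ralgps1 and sgms1. The nr3c2 region at chromosome 1, 57297676 to 57298686, in the gene of the mineralocorticoid receptor, had 15.7, 9.60 and 15.4 CPM with T3 and 2.31, 3.98 and 2.94 CPM untreated (log2 change 2.12 ± 0.23, edgeR adjusted p = 2.39e-11). Beside ralgps1, the gene of an exchange factor for Ral GTPases, at chromosome 8, 4642546 to 4643136, signal was 13.1, 14.0 and 12.9 CPM with T3 and 2.44, 2.69 and 1.60 CPM untreated (log2 change 2.55 ± 0.25, edgeR adjusted p = 1.37e-13). In sgms1, a sphingomyelin synthase gene, at chromosome 7, 13203605 to 13204330, signal was 11.6, 13.8 and 15.6 CPM with T3 and 3.86, 4.52 and 4.67 CPM untreated (log2 change 1.64 ± 0.20, edgeR adjusted p = 1.11e-09). At all 3 genes the T3 and untreated libraries did not overlap. The strong rises were taken only from regions that also passed with TMM, so that call is no further support.

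The 12 regions named for the largest log2 rise had low untreated values, which a ranking by log2 change favours. The slc5a6 region at chromosome 5, 154469870 to 154470326, in the gene of a sodium-dependent vitamin transporter, held 77 reads over the T3 libraries and 2 over the untreated ones. The ratio of reads per tag was 44.7, with a 95% interval of 12 to 376 from counting error alone. In usp21, a deubiquitinase gene, at chromosome 8, 142747457 to 142748152, signal was 6.86, 7.48 and 8.46 CPM with T3 and 0.772, 0.754 and 1.07 CPM untreated (log2 change 3.12 ± 0.32, edgeR adjusted p = 2.66e-12). This rise had the smallest SE of the 12 largest, with close replicates in both groups. Beside spice1, a centriole gene, at chromosome 2, 3454827 to 3455333, signal was 8.73, 7.34 and 4.81 CPM with T3 and 0.257, 0.862 and 1.07 CPM untreated (log2 change 3.23 ± 0.37, edgeR adjusted p = 7.21e-11). In cic, which encodes the repressor capicua, at chromosome 7, 107492921 to 107493385, signal was 6.73, 9.60 and 5.14 CPM with T3 and 1.29, 1.18 and 0.534 CPM untreated (log2 change 2.80 ± 0.38, edgeR adjusted p = 2.36e-08).

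The other 8 regions with the largest rises spread over diverse functions. They lay at slc15a2 (peptide transport), slc39a14 (zinc transport), sgk2 (a kinase), polr3c (a subunit of RNA polymerase III), nvl (ribosome assembly), zfp36l2 (mRNA decay), midn and kiaa0930. Their log2 changes ran from 2.76 at zfp36l2 to 3.32 at slc15a2. At slc15a2 the T3 libraries spread widely, with 5.36, 3.95 and 1.99 CPM with T3 and 0.772, 0.323 and 0 CPM untreated. A call with TMM was a condition for naming these 8 and is no further support. All 8 remained higher with tags whichever single library was left out.

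Some genes held several rising regions. These genes were singled out after their values were seen, and larger genes have more regions to count. In babam2, which encodes a member of a BRCA1-associated complex, 6 of 8 tested regions were higher with T3. The strongest, at chromosome 5, 5639194 to 5639887, had 10.6, 12.1 and 11.9 CPM with T3 and 1.67, 2.80 and 1.60 CPM untreated (log2 change 2.48 ± 0.26, edgeR adjusted p = 2.85e-12). The babam2 rises were uneven in strength, and 4 of the 6 held with TMM. The region at 5618890 was higher only narrowly, with an edgeR adjusted p of 0.0481 with tags and 0.342 with TMM. Its call was lost without any of 5 single libraries, at up to 0.281. The region at 5558148 had an edgeR adjusted p of 0.0227 with tags and 0.199 with TMM. That call was lost without any of 4 single libraries, at up to 0.152.

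The nuclear factor I genes nfib and nfic, which encode DNA-binding transcription factors, and the DNA repair scaffold gene spidr also held clusters. All 4 tested nfib regions were higher, the strongest at chromosome 1, 124400064 to 124400657, with 8.60, 10.7 and 8.13 CPM with T3 and 2.06, 3.12 and 3.34 CPM untreated (log2 change 1.68 ± 0.27, edgeR adjusted p = 1.41e-06). All 3 nfic regions were higher, with 8.33 ± 0.549 CPM with T3 and 1.84 ± 0.839 CPM untreated at the strongest (SD, n = 3 each). The weakest of the nfic rises was lost without the second T3 library (edgeR adjusted p = 0.0766), and the nfib region at 124415970 passed with tags but not with TMM (edgeR adjusted p = 0.0558). In spidr 4 of 5 regions were higher, led by 11.1, 14.3 and 15.8 CPM with T3 and 2.44, 2.58 and 3.87 CPM untreated at chromosome 6, 113072204 to 113072755. In foxo6, a forkhead factor gene, all 3 regions were higher, and all 3 held with TMM.

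Gene lists put the named regions in context. All lists were chosen with earlier results of these data known, so their shares are a description and no test. A list is described by the number of its regions that passed and by its median log2 change, set beside 8.6% higher and a median of 0.46 over all tested regions. Its count with TMM stands beside 4.26% higher over all tested regions with that scaling. The 20 lists hold 750 genes, of which 203 had a tested region within 10 kb. Of their 291 regions, each counted once, 96 were higher and none lower, and with TMM 54 were higher and 1 lower. Their median log2 change was 0.98. Lists share genes, regions of 1 gene are not independent, and regions near genes rose more often than others, as given above.

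Direct T3 response genes of tadpoles and chromatin enzymes had the largest shares of rises among lists of more than 20 regions. Of 22 regions of direct response genes, 18 were higher and 12 remained so with TMM, with a median log2 change of 1.57. Beside thrb, thibz, dot1l and klf9 they included sox4, a developmental transcription factor gene, with 8.73, 9.03 and 9.46 CPM with T3 and 1.93, 1.51 and 2.80 CPM untreated at its region (log2 change 2.13 ± 0.27, edgeR adjusted p = 3.84e-09). They also included ihh, which encodes the ligand Indian hedgehog, with 4.24, 2.40 and 4.31 CPM with T3 and 0.514, 0.539 and 0.534 CPM untreated (log2 change 2.74 ± 0.55, edgeR adjusted p = 0.0001). This list was drawn from known responders, so its direction is no independent observation.

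Of 25 regions of histone and DNA methylation enzymes, 13 were higher, 7 of them also with TMM, with a median log2 change of 1.22. The kdm6b gene, which encodes a histone H3 lysine 27 demethylase, had 10.2, 11.1 and 10.1 CPM with T3 and 4.12, 4.20 and 5.21 CPM untreated at its strongest region (log2 change 1.22 ± 0.22, edgeR adjusted p = 1.27e-05). The ezh2 gene, whose product adds methyl groups at the same residue, had 8.10, 7.34 and 6.64 CPM with T3 and 3.09, 1.83 and 3.07 CPM untreated (log2 change 1.48 ± 0.28, edgeR adjusted p = 3.16e-05). The nsd1 gene, whose product methylates histone H3 lysine 36, had 7.11, 9.03 and 8.96 CPM with T3 and 2.19, 3.02 and 2.27 CPM untreated (log2 change 1.72 ± 0.29, edgeR adjusted p = 3.77e-06). Signal thus rose at genes of enzymes that add and that remove H3 lysine 27 methylation.

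Of 14 regions of receptor corepressor and coactivator genes, 5 were higher with tags and none with TMM, with a median log2 change of 1.17. At the acetyltransferase gene crebbp the edgeR adjusted p was 0.00215 with tags and 0.0633 with TMM. The call at hdac2, a deacetylase gene, was lost without the first untreated or the second T3 library (edgeR adjusted p up to 0.119). Chromatin remodelling subunits had 4 higher of 11, 3 of them with TMM: arid1b, chd7 and gatad2a. The fourth, smarca2 (edgeR adjusted p = 0.0442), was lost when any of 5 single libraries was left out, with an edgeR adjusted p of up to 0.338.

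Receptors other than TR had 6 higher regions of 14, 4 of them with TMM. Besides nr3c2 they included rara, a retinoic acid receptor gene, with 10.3, 9.45 and 10.1 CPM with T3 and 1.67, 3.55 and 3.60 CPM untreated (log2 change 1.75 ± 0.24, edgeR adjusted p = 4.94e-08). They also included hnf4a, a gene of epithelial identity, with 3.12, 3.81 and 2.99 CPM with T3 and 0.257, 1.08 and 1.20 CPM untreated (log2 change 1.93 ± 0.47, edgeR adjusted p = 0.00199). In the list of thyroid hormone receptors, transport and metabolism, 7 of 12 regions were higher, all at thra, thrb and rxrb, and rxrb did not pass with TMM. The clock list had 4 higher of 14 and 1 with TMM, that of arntl2, whose region also lies in stk38l.

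Genes of the differentiated epithelium had 5 higher regions of 12, and all 5 held with TMM, with a median log2 change of 1.48. The cdx1 region, in the gene of an intestinal homeobox factor, had 8.23, 7.48 and 6.80 CPM with T3 and 1.67, 0.323 and 1.87 CPM untreated (log2 change 2.58 ± 0.35, edgeR adjusted p = 1.62e-08). The dpp4 region, in a brush border peptidase gene, had 7.73, 10.4 and 8.63 CPM with T3 and 2.06, 3.12 and 2.27 CPM untreated (log2 change 1.82 ± 0.27, edgeR adjusted p = 1.70e-07). For stem and progenitor genes 2 of 6 regions were higher, both at lgr4, a receptor for R-spondins, and neither held with TMM (edgeR adjusted p of 0.175 and 0.256). Both lgr4 calls were also lost without single libraries, the third untreated and the third T3 library among them, with an edgeR adjusted p of up to 0.123 and 0.14.

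Rises in the lists of signalling pathways partly depended on the scaling. Of 12 hedgehog and BMP regions 3 were higher, all with TMM: ihh, the hedgehog co-receptor gene cdon and the activin receptor gene acvr1b. The cdon region had 6.36, 7.48 and 7.14 CPM with T3 and 1.93, 1.94 and 2.27 CPM untreated (log2 change 1.77 ± 0.30, edgeR adjusted p = 6.89e-06). Of 32 WNT and R-spondin regions 6 were higher, but with TMM only that of znrf3, the gene of a ubiquitin ligase for WNT receptors. Neither of 2 Notch regions passed. Of 12 cell death regions 4 were higher. With TMM 1 of them, at the stress gene gadd45g, remained so, and 1 region of the list, at bak1, was lower. The gadd45g region had 7.61, 7.48 and 7.97 CPM with T3 and 1.41, 2.05 and 1.74 CPM untreated (log2 change 2.13 ± 0.32, edgeR adjusted p = 2.58e-07). Of 5 cell cycle regions 2 were higher, cdc6 and cdkn1a, and cdkn1a was lost with TMM (edgeR adjusted p = 0.0809). Of 16 matrix and protease regions 4 were higher and none with TMM.

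Rises in the metabolic lists included regions that held under both scalings. In the list of insulin, PI3-kinase and autophagy genes 12 of 31 regions were higher, 8 with TMM, with a median log2 change of 1.04. The pik3r1 region, in the gene of a regulatory subunit of PI3-kinase, had 6.61, 8.61 and 6.47 CPM with T3 and 1.29, 1.83 and 0.534 CPM untreated (log2 change 2.51 ± 0.34, edgeR adjusted p = 1.43e-08). Among sugar and lipid genes 8 of 24 regions were higher, 5 with TMM, with a median log2 change of 1.28. They included cpt1a, a carnitine palmitoyltransferase gene, with the first T3 library well below the other 2, at 2.0, 6.07 and 4.81 CPM with T3 and 0.386, 1.72 and 0.401 CPM untreated (log2 change 2.26 ± 0.49, edgeR adjusted p = 0.000437). They also included lpin1, a phosphatidate phosphatase gene, with 4.36, 3.81 and 3.15 CPM with T3 and 1.16, 0.969 and 0.668 CPM untreated (log2 change 2.0 ± 0.42, edgeR adjusted p = 0.000231). Of 30 solute carrier and channel regions 7 were higher, 4 with TMM, among them slc16a1, a monocarboxylate transporter gene, with 9.73, 13.8 and 11.1 CPM with T3 and 3.73, 3.23 and 1.74 CPM untreated (log2 change 1.98 ± 0.25, edgeR adjusted p = 2.54e-09).

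Genes of other cells in the gut wall had few tested regions, and their calls are set beside 8.6% of all tested regions. Of 11 regions of mesenchyme and smooth muscle genes 1 was higher, that of zeb2, with an edgeR adjusted p of 0.0437 with tags, 0.374 with TMM and up to 0.285 without any of 4 single libraries. The median log2 change of these 11 was 0.99. Of 6 regions of blood, vessel and nerve genes none passed, with a median log2 change of 0.04. TR signal is not a measure of cell content, so these lists do not check the tissue label.

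**Figure D4:**
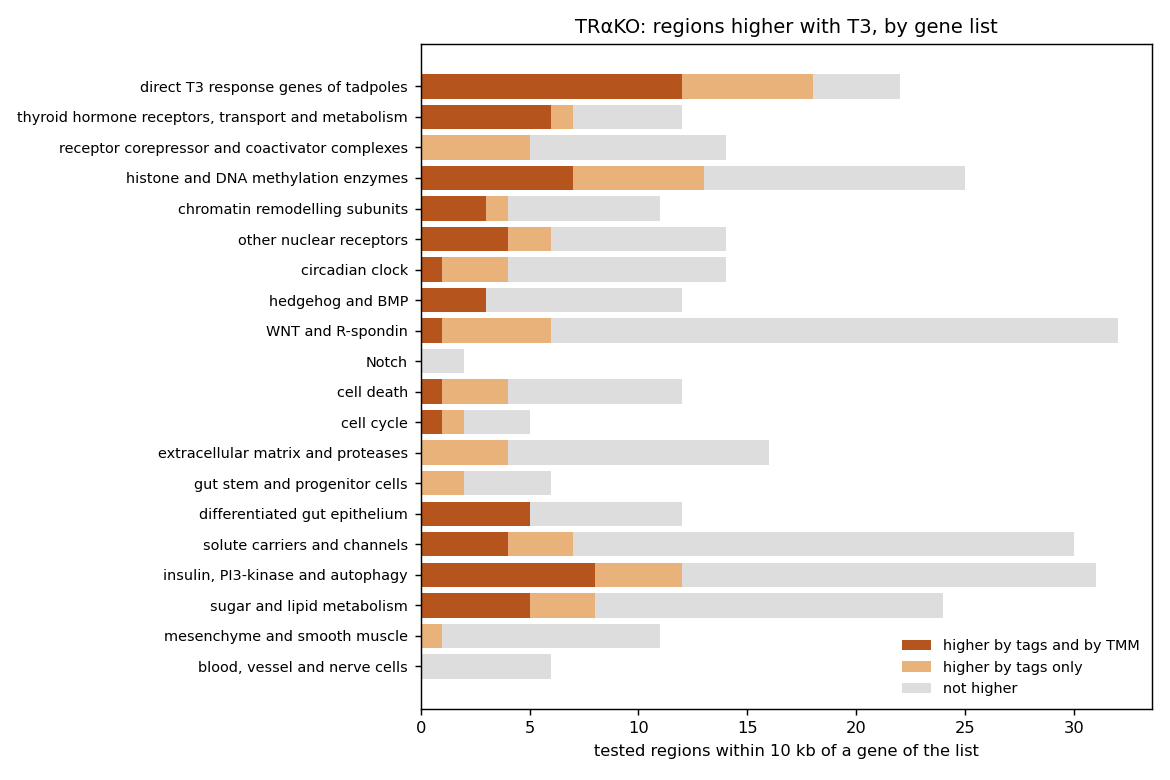
Number of tested regions per gene list in TRαKO: higher with T3 by tags and by TMM (dark), higher by tags alone (light) and not higher (grey). Dark bars reach 12 of 22 for direct T3 response genes, and no region of the corepressor and coactivator, matrix, stem cell, mesenchyme, Notch or blood, vessel and nerve lists has a dark bar.

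When tags set the library size, falls were few and none lay at a listed gene. The 7 lower regions were named as a count this small, outside the naming rule. A region at chromosome 2, 96725074 to 96726026, beside LOC116408695 had 13.2, 14.8 and 12.3 CPM with T3 and 17.7, 22.2 and 22.2 CPM untreated (log2 change -0.62 ± 0.19, edgeR adjusted p = 0.0265). A second region, inside that gene and from 96721714, had 12.9 ± 2.04 CPM with T3 and 22.2 ± 4.80 CPM untreated (SD, n = 3 each; log2 change -0.79 ± 0.19, edgeR adjusted p = 0.00175). Neither call held whichever library was left out: without the second untreated library the edgeR adjusted p at 96721714 was 0.0581, and at 96725074 it reached 0.138 when any of 5 single libraries was left out.

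The fall at LOC105948228, chromosome 1, 81782919 to 81783469, was more stable, with 4.36, 3.10 and 2.99 CPM with T3 and 7.59, 7.86 and 7.08 CPM untreated. Its log2 change was -1.09 ± 0.28 (edgeR adjusted p = 0.00439, and at most 0.0417 without any single library). A region at chromosome 5, 158250892 to 158251278, with no gene within 10 kb, held 1 read over the T3 libraries and 31 over the untreated ones, and its call held whichever library was left out (edgeR adjusted p at most 0.0471). The other 3 lower regions, at cadps, kiaa0355 and LOC116411095, each lost their call without at least 3 of the single libraries, with an edgeR adjusted p of up to 0.347, 0.114 and 0.214. With TMM 5 more regions with a gene symbol and enough signal were lower in full order of the libraries: crygdl.17, bak1, atl3, dffa and thsd7b. Their log2 changes with tags ran from -1.46 at crygdl.17 to -0.54 at dffa, and none of the 5 passed on that scale.

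Strong signal alone did not bring a rise. The 6 strongest regions with a gene symbol that passed under neither scaling lay at nrip3, kcnt2l, eef2k and, with 3 regions, qtrt1, a tRNA modification gene. The kcnt2l and qtrt1 regions lie in a single stretch of chromosome 3, from 138654419 to 138678638, and are not widely separate examples. The strongest qtrt1 region, at chromosome 3, 138668547 to 138669470, had 17.8, 17.8 and 14.3 CPM with T3 and 15.8, 12.8 and 12.3 CPM untreated. Its groups overlapped, and its log2 change was 0.29 ± 0.16 (edgeR adjusted p = 0.293). Peaks were called there in all 6 libraries. The region beside nrip3 had 8.98, 11.1 and 8.13 CPM with T3 and 9.13, 10.0 and 11.5 CPM untreated, a log2 change of -0.11 ± 0.21 (edgeR adjusted p = 0.806).

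All 7 counted regions of the mitochondrial genome were higher with T3, 3 of them also with TMM, against 8.6% and 4.26% of all tested regions. The 7 lie on 1 molecule and are not independent observations. No TRαKO library had a peak at those from 2821, 4462, 15975 and 16385. The strongest of the 7, beside ND1 at 109 to 1354, had 59.5, 60.5 and 66.2 CPM with T3 and 34.5, 31.3 and 33.8 CPM untreated. Its log2 change of 0.90 ± 0.10 (edgeR adjusted p = 4.20e-11) lay closer to the median of all regions than that of the thra or thibz regions. The 7 log2 changes ran from 0.60 to 0.96. They were also positive in wild type, at 1.07 to 2.92, and in TRβKO, at 1.56 to 2.06. Mitochondrial DNA is present in many copies per cell and is not packaged as nuclear chromatin is, and whether these counts reflect TR was not tested.

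Set beside wild type, the response of TRαKO intestine was smaller at 8 of the 11 regions of thra, thrb, klf9, thibz and dot1l. The wild-type T3 libraries were shallower, with 2.29 to 2.53 M tags, and the untreated ones deeper, with 12.4 to 17.1 M. Duplicate tags averaged 21.8% of the wild-type T3 libraries and made up at most 2.97% of each untreated one, whereas they averaged 9.40% with T3 and 10.3% untreated in TRαKO. The fragment length given by the peak caller was 255 to 283 bp in untreated wild type and 297 to 298 bp in wild type with T3. In TRαKO it was 295 to 296 bp in both groups. The part of depth, duplicates and fragment length in the differences was not tested. Over all tested regions the T3 effect was smaller (more negative or less positive) in TRαKO than in wild type at 484 regions (5.18%) and larger at 104 (1.11%), by the test of the difference itself at an edgeR adjusted p under 0.05. With TMM these counts were 575 (6.15%) and 57 (0.61%). Of the 803 regions that rose in TRαKO, 653, or 81.3%, were also higher in wild type, where 956 regions, or 10.2% of all tested, were higher. The 653 made up 68.3% of the wild-type rises.

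Among the 803 regions the difference to wild type passed as smaller in TRαKO at 330 and as larger at 21, and at 375 and 10 with TMM. Because the 803 were chosen by the TRαKO contrast, which enters the difference, these counts are a description. The median level of the 803 was 4.26 CPM with T3 in TRαKO and 9.31 CPM with T3 in wild type, and 1.24 CPM untreated in TRαKO and 1.09 CPM untreated in wild type. Their median log2 change was 1.73 in TRαKO and 3.31 in wild type.

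**Figure D5:**
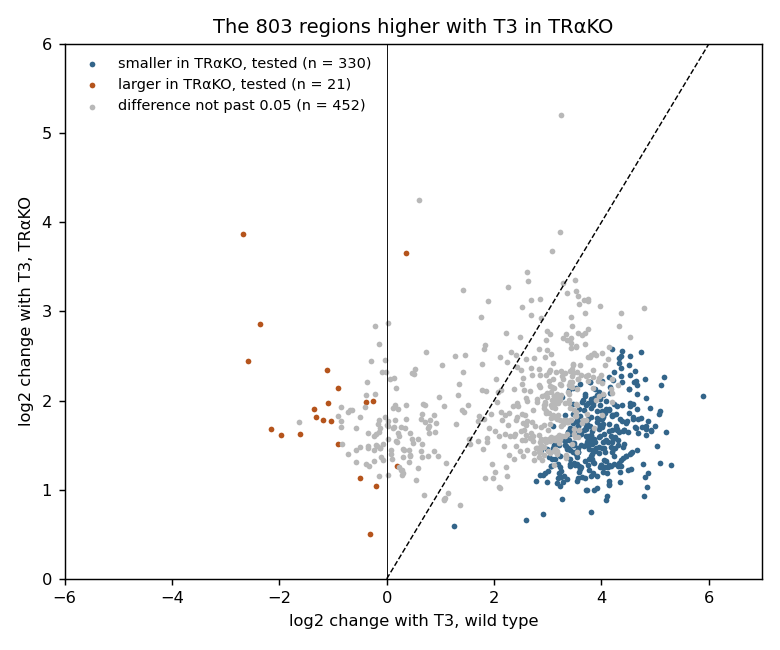
Log2 change with T3 in TRαKO (vertical) against wild type (horizontal) for the 803 regions higher in TRαKO, coloured by the test of the difference; the dashed line marks equal changes. The 330 regions with a smaller change in TRαKO lie right of the line and the 21 with a larger one left of it.

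The receptor genes illustrate the smaller rise. At the thra region from 9096138, signal was 19.7 ± 1.51 CPM with T3 and 4.48 ± 0.0626 CPM untreated in TRαKO, against 48.2 ± 1.41 CPM with T3 and 2.13 ± 0.538 CPM untreated in wild type (SD, n = 3 each). The log2 effects differed by -2.38 (edgeR adjusted p = 2.92e-10). At the thrb region from 46932899, 12.8 ± 1.33 CPM with T3 and 4.40 ± 0.572 CPM untreated in TRαKO stood against 40.2 ± 0.628 CPM with T3 and 2.14 ± 0.711 CPM untreated in wild type, a difference of -2.67 (edgeR adjusted p = 1.83e-11). Mean TRαKO levels in these 2 regions were thus lower with T3 and higher without it than in wild type, and each pair of levels was not tested by itself.

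The thrb region from 46698245, which did not pass in TRαKO, had 15.5 ± 2.98 CPM with T3 and 2.10 ± 0.583 CPM untreated in wild type, and the effects differed by -3.03 (edgeR adjusted p = 4.59e-09). At thibz the difference was -2.44 (edgeR adjusted p = 6.71e-12) and at dot1l -3.26 (edgeR adjusted p = 4.45e-12). At 2 thra regions, from 9104506 and 9147455, and at the klf9 region inside the gene the difference did not pass with tags (edgeR adjusted p of 0.0785, 0.549 and 0.0599). With TMM the first and the last did pass (edgeR adjusted p of 0.0432 and 0.0269). Of the 12 regions named for the largest rises in TRαKO, none differed from wild type by this test with tags. They were chosen by the TRαKO contrast, which enters the difference, so this is a description. It does not show that their responses were alike.

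Against TRβKO, the T3 effect was smaller in TRαKO at fewer regions than against wild type, and larger at more, with tags and with TMM. The TRβKO libraries averaged 2.974 M tags with T3 and 5.496 M untreated, so their depth was unlike that of wild type. The part of depth and duplicates in these counts was not tested, and the counts do not rank the genotypes by likeness to TRαKO. The T3 effect was smaller in TRαKO than in TRβKO at 191 regions (2.04%) and larger at 135 (1.45%), and with TMM at 316 (3.38%) and 65 (0.696%). Of the 803 rises 628, or 78.2%, were also higher in TRβKO, where 887 regions, or 9.49%, were higher, and the 628 made up 70.8% of these. The tested difference was smaller in TRαKO at 134 of the 803 and larger at 26, and at 210 and 15 with TMM, again as a description. At the thra region from 9096138 signal in TRβKO was 41.7 ± 9.91 CPM with T3 and 4.56 ± 1.52 CPM untreated, and the effect in TRαKO differed from it by -1.07 (edgeR adjusted p = 0.0197). At the thrb region from 46932899 TRβKO had 32.6 ± 1.17 CPM with T3 and 7.06 ± 1.20 CPM untreated, and the difference of -0.66 did not pass with tags (edgeR adjusted p = 0.189) but did with TMM (edgeR adjusted p = 0.0324).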

How the data were processed

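TR ChIP-seq of TRαKO intestine with and without T3 was taken from a series of 18 libraries in 6 groups of 3, with genotype and treatment read from the labels. The authors' deposited table holds raw read counts of 9867 regions per library, and DiffBind is named in the submitters' processing notes without a version. Bowtie2 2.3.4.1 and MACS2 2.1.1.20160309 are named there, while per the file headers peaks were called by MACS 2.2.7.1 in each library, with no control and a q-value limit of 0.05. The deposited peak lists give pileup signal, -log10 p-values and q-values, and fold enrichment as a ratio over local background, per the file headers. The build is not given in the sources used here. Chromosomes in the count table are coded, and read as a code all 9824 regions on chromosomes and the mitochondrial genome overlapped a peak in at least 2 libraries.

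Counts were fitted with edgeR 4.0.16 (robust quasi-likelihood, R 4.3.3, limma 3.58.1) over all 18 libraries with 6 group means. Library size was tags after filtering, 6.03 to 9.28 M in TRαKO. TMM was run beside it, and 9342 regions passed filterByExpr. Two-sided p-values were adjusted by Benjamini-Hochberg across the 9342 regions, calls were made below 0.05, and SE is the log2 change over the root of F. They measure only how samples of a group vary, which may be partly technical, and intervals of reads cover counting error alone. The variance between replicates was 2.13 (T3) and 1.94 (untreated) times that of counting error. The fit was tested on simulated data. Library totals were compared by exact permutation (Python 3.11.15, pandas 2.3.3, numpy 2.4.6, scipy 1.17.1, matplotlib 3.10.9).

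A region belongs to the gene it overlaps, or the nearest within 10 kb, by UCB_Xtro_10.0 gene positions. Of counted regions 7.45% lay within 500 bp of a gene end, against 3.77 to 4.19% after shifts. These positions carry no strand, so where a region overlaps several genes the nearest gene end of either kind decided. The naming rule takes regions with a gene symbol that is not a LOC identifier. It takes the 12 largest rises that pass with tags and TMM. These need at least the median level of 1.76 CPM over the 6 libraries and no overlap of groups. It also takes the 12 regions with the highest T3 level among rises that pass with tags and TMM. Up to 12 falls past either scaling are added, as are the 6 strongest regions past neither. All regions of thra, thrb, klf9, thibz and dot1l follow, with up to 4 regions per list by p. The 6 largest differences to wild type each way complete the rule. The comparison, lists and rule were chosen with earlier results of these data known. Regions of 2 genes that the rule takes are not reported here. No genome sequence was used here, so no motif was searched. Alternatives were another scaling (TMM, DESeq2 1.42.0), no filter, 6 libraries alone, thinning, a replicate block and leaving out each library.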

Additional observations from a re-analysis of the deposited data

Results flagged for a closer look

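The tests of the difference between T3 effects set TRαKO apart from the other genotypes at a minority of tested regions, and these are listed as values. The T3 effect was below that of wild type at 484 regions (5.18% of tested) and above it at 104 (1.11%). It was below that of TRβKO at 191 (2.04%) and above it at 135 (1.45%). With TMM these counts were 575 and 57 against wild type, and 316 and 65 against TRβKO. The log2 differences given next are the effect in TRαKO minus that in wild type, each past an edgeR adjusted p of 0.05.

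At the core target genes the differences were all negative. They were -2.38 and -2.91 at thra (from 9096138 and 9098324), -3.03, -2.20 and -2.67 at thrb (from 46698245, 46899379 and 46932899), -2.44 at thibz, -3.26 at dot1l and -1.90 at klf9 (from 129859818). The call held at each of these when any single TRαKO library was left out.

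Among genes named for a large difference, the most negative were -4.29 at mphosph8, -4.07 at ccnj, -4.01 at babam2 (from 5618890), -3.90 at rnpc3, -3.85 at klhl18 and -3.80 at znrf3. At mphosph8, whose product binds methylated histone H3 lysine 9, signal was 4.24 ± 0.223 CPM with T3 and 2.14 ± 0.894 CPM untreated in TRαKO, against 13.4 ± 0.712 CPM with T3 and 0.322 ± 0.0291 CPM untreated in wild type (SD, n = 3 each). Of these 6 regions, znrf3, klhl18 and babam2 were higher with T3 in TRαKO, and babam2 narrowly so, as given above.

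Positive differences were 7.58 at prickle2, 3.86 at tcf4, 3.86 at gripap1, 3.67 at reps1 and 3.64 at ppm1g. None of these 5 regions was called higher with T3 in TRαKO itself. At prickle2 the wild-type T3 libraries held 0 reads, so the fitted difference there depends on the prior count and is no measure of size. At the other 4 they held 2 or 3 reads over 3 shallow libraries. At prickle2 signal was 2.60 ± 0.773 CPM with T3 and 1.16 ± 0.303 CPM untreated in TRαKO, against 0 reads with T3 and 1.58 ± 0.458 CPM untreated in wild type. The tcf4 call was lost without the second TRαKO T3 library (edgeR adjusted p = 0.0508).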

How the results depend on the processing

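Scaling moved the counts most. Regions higher and lower with T3 were 803 and 7 with tags, 398 and 49 with TMM, 410 and 154 with DESeq2, 287 and 87 in edgeR with DESeq2 size factors, and 401 and 167 with TMM on the 6 libraries alone, a setting chosen after seeing the data. All tags gave 819 and 7, no filter 798 and 7, no robust option 807 and 7, the 6 libraries alone 1000 and 14, and thinning to the shallowest library 917 and 13. Tested regions numbered 9867 with no filter, 7615 for the 6 libraries alone, with tags or TMM, and 6098 after thinning. The other settings tested 9342, so counts on unlike bases are not directly comparable. Leaving out each library gave 609 to 682 higher and 5 to 10 lower with tags, and with TMM 259 and 44, 265 and 35 and 265 and 48 without untreated replicates 1, 2 and 3, and 278 and 36, 339 and 28 and 331 and 30 without T3 replicates 1, 2 and 3. Effects below and above wild type numbered 484 and 104 with tags, 575 and 57 with TMM and 656 and 41 with DESeq2. Without single libraries they were 389 to 427 and 68 to 78, the fewest above without the second T3 library. Against TRβKO they were 191 and 135, with TMM 316 and 65, with DESeq2 481 and 44, and without single libraries 143 to 165 and 68 to 113, with 81 above without the third untreated and 68 without the second T3 library. Regions with a peak in at least 2 of 3 libraries numbered 2039 with T3 and 290 untreated, 861 and 79 at a -log10 q of at least 5, and 1844 and 189 when the peak had to cover 0.5 of the region.

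Deviations of same-numbered T3 and untreated libraries from their group means correlated at 0.0024, 0.0077 and 0.0227. At few reads per region counting error can hide a pairing, so this check cannot decide whether the numbers pair the libraries. With the replicate block 642 regions were higher and 4 lower, with TMM besides 318 and 19, and the differences were 399 and 49 to wild type and 133 and 58 to TRβKO. Of 117 named regions 82 passed, 60 of these with TMM and 65 whichever library was left out. Parts of the naming rule required a call with tags and TMM, or took regions by p. The 82, 60 and 65 thus partly follow from that choice. Of all 803 rises, 398 passed with TMM. No call reversed, and in 10 regions values that never passed changed sign. Beyond the scaling, which fixes the centre, the cause of these changes was not tested. A region at the median level of 1.76 CPM holds few reads per library, so small changes there were not detectable at this depth.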
